A study of Mus musculus with 11 samples.

Results

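The EGF receptor family and its ligands were read out as 10 transcripts in the colonic epithelium of RAG KO mice, which carry a Rag1 deletion and lack mature T and B cells, on the C57BL/6 background. The members were taken by gene symbol from a table of 52550 genes and comprise the receptors Egfr, Erbb2 and Erbb3, the ligands Areg, Ereg, Hbegf, Tgfa, Btc and Epgn, and the intracellular inhibitor Errfi1. All 10 had reads in every mouse and all 10 passed the filter on low counts, as did 15044 genes in all. The 5 CD mice received a diet with 7% cellulose and the 6 FFD mice a fiber-free diet, each for 4 weeks. Both groups were then given 1.5% DSS (dextran sulfate sodium, a sulfated sugar polymer toxic to the cells lining the colon) for 5 days, so that no mouse was free of DSS. By the paper's account, RAG KO mice fed cellulose were more resistant to colitis than those without it. Diet and severity of colitis thus cannot be told apart in these libraries. An age for these mice was not given in the sources used. The cells were shaken from the colon and all fractions pooled, and 1 library was made per mouse. The labels carry the number 1 in every CD and the number 2 in every FFD sample, and a batch or cage marked by that number cannot be told apart from the diet.

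Ligands of this family are made as membrane-anchored precursors that metalloproteases release from the cell surface. They bind EGFR, and HB-EGF, betacellulin and epiregulin bind ERBB4 as well. Ligand binding lets receptors pair, also with ERBB2, which has no known ligand of its own, and with ERBB3, whose kinase is largely inactive, and the pairs signal through the RAS to ERK cascade and the PI3K to AKT branch. In the gut the family is known for driving the growth of crypt cells and the closing of epithelial wounds, and several of its ligands and inhibitors are themselves switched on by the receptor, in positive and negative feedback.

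What defines a member of the ligand family is a short stretch of the precursor with 6 cysteines, which close 3 disulfide loops and hold the part that touches the receptor. The stretch was found by this cysteine pattern in the longest coding transcript of all 6 ligands (GENCODE M21, GRCm38). In each it measured 36 residues, and the gaps between successive cysteines were 7, 4, 10, 1 and 8 residues. It was encoded in 2 exons of every ligand gene. The coding bases of 5 ligands, read 5′ to 3′ along the transcript with the intron left out, are shown to let the shared frame of cysteine codons be seen, which are in capitals.
Areg: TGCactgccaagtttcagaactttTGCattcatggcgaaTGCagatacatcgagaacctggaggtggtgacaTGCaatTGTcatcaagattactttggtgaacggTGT
Ereg: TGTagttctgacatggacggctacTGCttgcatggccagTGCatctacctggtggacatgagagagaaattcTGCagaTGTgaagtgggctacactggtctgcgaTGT
Epgn: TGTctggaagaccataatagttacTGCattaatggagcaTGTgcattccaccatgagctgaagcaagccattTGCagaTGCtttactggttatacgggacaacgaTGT
Btc: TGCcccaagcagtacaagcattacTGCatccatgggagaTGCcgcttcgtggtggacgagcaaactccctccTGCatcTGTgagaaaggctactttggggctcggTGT
Tgfa: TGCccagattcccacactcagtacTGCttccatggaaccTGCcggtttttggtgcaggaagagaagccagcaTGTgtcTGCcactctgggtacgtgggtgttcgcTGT
The Areg stretch lies at chr5:91143614-91144364 on the plus strand, that of Ereg at chr5:91088496-91089111 (plus), that of Epgn at chr5:91031152-91032237 (plus), that of Btc at chr5:91362421-91366197 (minus) and that of Tgfa at chr6:86263200-86269960 (plus). Between these translated stretches, Tgfa and Btc were the most alike, at 52.8% identical residues, and Areg was at 33.3% with both Ereg and Epgn. Epiregulin and epigen shared 41.7%. The stretch of Hbegf, which is not printed, reached 55.6% identity with that of Btc.

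Raw counts per gene were analysed. Total counts ranged from 20853535 to 28588266 in CD (median 25543054) and from 10374154 to 27973285 in FFD mice (median 24261218), with FFD mouse 4 as the shallowest library. Levels are given as CPM, counts per 1000000 counts after TMM scaling, a correction for differences in library composition. Diets were compared with the quasi-likelihood test of edgeR over all 15044 genes, with Benjamini-Hochberg adjustment and a threshold of 0.05. The test called 2740 of these genes (18.2%) as higher and 2792 (18.6%) as lower without fiber. As RNA from many cells was pooled in each library, fewer cells of a type and less RNA per cell cannot be told apart.

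By edgeR, 9 of the 10 members rose in FFD mice, against a background of 18.2% of all genes, and none of them fell, against 18.6%, nor did any fall at an unadjusted p under 0.05 or with DESeq2 or limma-voom. The exception was Hbegf, with an adjusted p of 0.053. All 3 receptors, 5 of 6 ligands and the inhibitor Errfi1 were among the 9. The members were chosen with earlier results of these data known, so the comparison with all genes is a description and no test. The median log2 fold change over the members was 0.62, with a range from 0.30 to 1.97, beside a median of -0.033 over all genes tested. The ligands had a median log2 fold change of 0.70 and the receptors one of 0.36. In Egfr, Tgfa and Btc every FFD mouse lay above every CD mouse, a pattern that 8.91% of all genes showed in this direction. In the other members the groups overlapped, although all 6 FFD mice lay above the median of the CD mice for each of the 10. How many of all genes showed this second pattern was not counted.

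**Figure D1:**
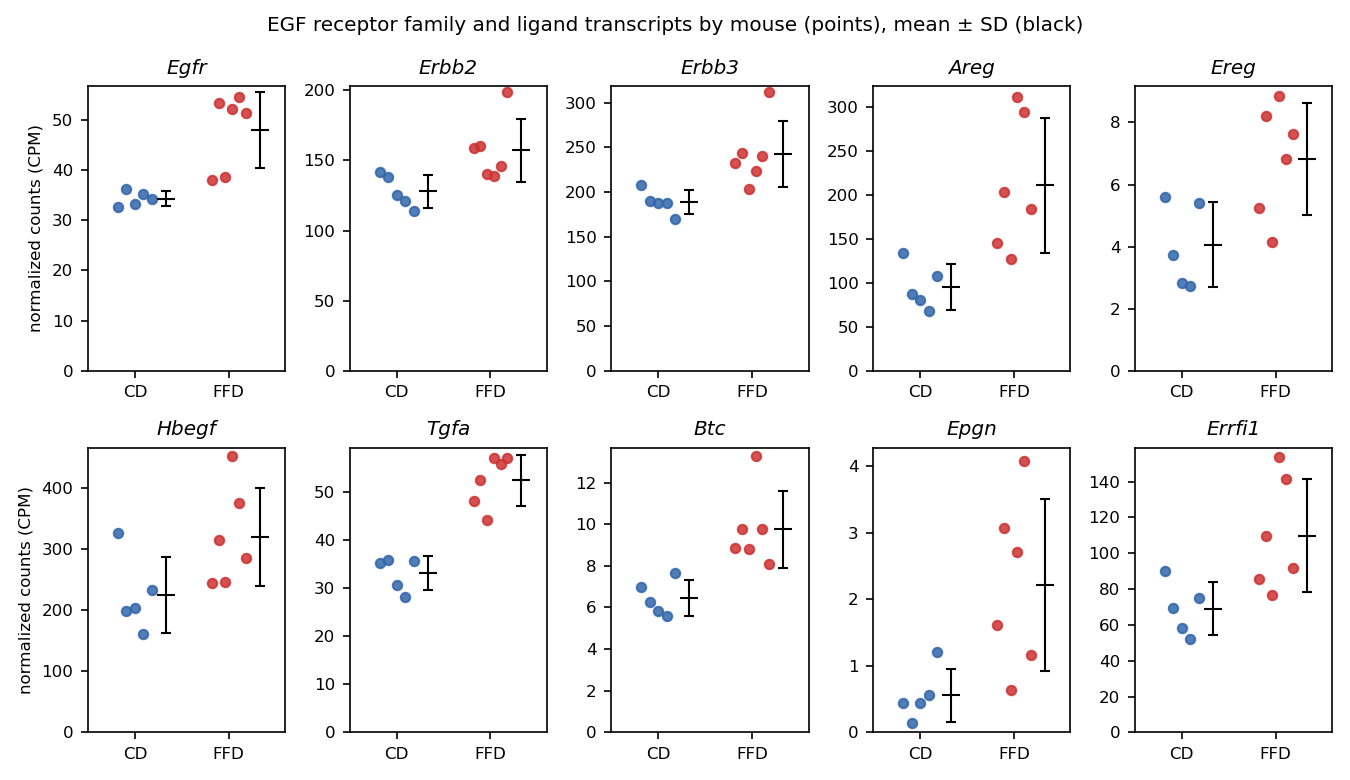
Normalized counts (CPM, linear axes from 0) of the 10 members in each of 5 CD and 6 FFD mice as points, with the mean and SD of each diet in black. Egfr, Tgfa and Btc show no overlap between the diets, and the overlap is widest in Hbegf, where only 2 FFD mice lie above the highest CD mouse.

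Scaling moved these values together. With total counts alone and no TMM the median over all genes was -0.186 in place of -0.033 on the log2 scale, and the median of the members was 0.47. All 10 members kept a positive log2 fold change under this scaling, and 6 of them passed the test. Calls over all genes then split into 1636 higher and 4863 lower, where TMM gave 2740 and 2792.

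**Figure D2:**
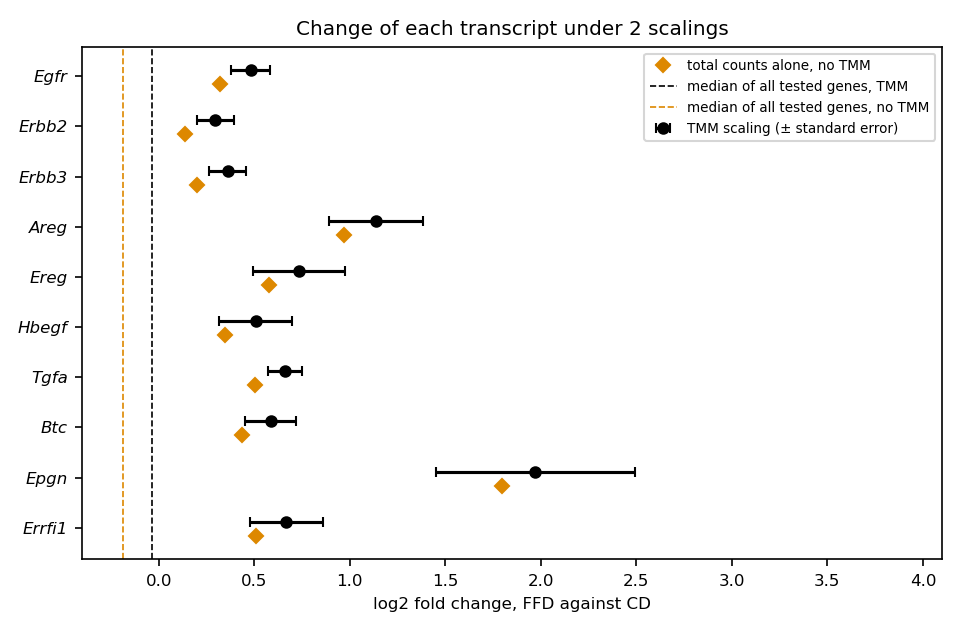
Log2 fold change of each member (FFD against CD, horizontal axis), with TMM scaling as black circles with the standard error and with total counts alone as orange diamonds. Dashed lines mark the median of all tested genes under each scaling, -0.033 and -0.186, and every member lies to the right of its line.

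EGFR, the receptor that all 6 ligands bind, is encoded by Egfr (ENSMUSG00000020122.16, chr11:16752203-16918158). It was at 32.6, 36.3, 33.2, 35.2 and 34.2 CPM in CD mice 1 to 5. In FFD mice it ranged from 37.9 to 54.6 CPM with a median of 51.7 CPM. The CD mice were close to each other, while the FFD mice fell into 2 at 37.9 and 38.6 CPM, just above the CD range, and 4 at 51.3 CPM or more. The means were 34.3 ± 1.502 CPM (SD, n = 5) and 47.9 ± 7.60 CPM (SD, n = 6), which gave a log2 fold change of 0.48 (standard error 0.10, edgeR adjusted p = 0.0037). It passed in all 20 alternatives, and without TMM its log2 fold change was 0.32.

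Erbb2 (ENSMUSG00000062312.5, chr11:98412470-98437716), the receptor that serves as the preferred partner of the others, was at 142, 138, 125, 121 and 114 CPM in CD mice. Levels in FFD mice ran from 139 to 199 CPM with a median of 152 CPM, and 4 of 6 lay above all CD mice. Its log2 fold change of 0.30 was the smallest of the family (standard error 0.096, edgeR adjusted p = 0.029). This call did not hold throughout. It was lost without CD mouse 3, 4 or 5 or FFD mouse 2, where adjusted p-values were 0.057, 0.067, 0.059 and 0.052, and without TMM, where the log2 fold change was 0.14 (adjusted p = 0.23).

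Erbb3 (ENSMUSG00000018166.8, chr10:128567523-128589652), the receptor for neuregulins with little kinase activity of its own, was at 208, 189, 188, 188 and 170 CPM in CD mice. In FFD mice it ranged from 204 to 311 CPM with a median of 236 CPM. The lowest FFD mouse, number 3, was the only one that did not lie above CD mouse 1. The log2 fold change was 0.36 (standard error 0.098, edgeR adjusted p = 0.012), and it was 0.20 without TMM (adjusted p = 0.073). FFD mouse 6 had the highest level of both Erbb2 and Erbb3 and stood apart from the other FFD mice in both. Without it the log2 fold change was 0.22 for Erbb2 (adjusted p = 0.043) and 0.28 for Erbb3 (adjusted p = 0.012).

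Amphiregulin, the EGFR ligand encoded by Areg (ENSMUSG00000029378.5, chr5:91139599-91148432), showed the second largest change of the family. CD mice 1 to 5 were at 135, 88.1, 80.8, 67.7 and 108 CPM. In FFD mice levels of 127 to 312 CPM were found, with a median of 194 CPM. FFD mouse 3, at 127 CPM, lay below CD mouse 1, and the other 5 FFD mice lay above all CD mice. The means were 95.9 ± 26.2 CPM (SD, n = 5) and 211 ± 76.5 CPM (SD, n = 6), which gave a log2 fold change of 1.14 (standard error 0.24, edgeR adjusted p = 0.0039), or 2.20-fold. The call held in all 20 alternatives, with log2 fold changes from 0.97 to 1.31.

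HB-EGF, a ligand that binds both EGFR and ERBB4 and also heparan sulfate, is encoded by Hbegf (ENSMUSG00000024486.6, chr18:36504927-36515805), which had the most counts of the ligands. CD mice were at 327, 199, 204, 161 and 232 CPM. FFD mice ranged from 245 to 451 CPM with a median of 299 CPM. CD mouse 1 lay above 4 of the 6 FFD mice, and the other 4 CD mice lay below all of them. Its log2 fold change was 0.51 (standard error 0.19) and missed the threshold by edgeR (adjusted p = 0.053). It passed in 9 of the 20 alternatives, DESeq2 (adjusted p = 0.020) and limma-voom (adjusted p = 0.045) among them. With 1 mouse left out it passed in 3 of 11 fits. Without CD mouse 1 the log2 fold change was 0.70 (adjusted p = 0.011), without FFD mouse 1 it was 0.57 (adjusted p = 0.036) and without FFD mouse 3 it was 0.58 (adjusted p = 0.031). In the fits that did not pass, the log2 fold change went down to 0.38 and the adjusted p up to 0.12. Without TMM it did not pass either (adjusted p = 0.14).

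Transforming growth factor alpha, an EGFR ligand made in the gut epithelium, is encoded by Tgfa (ENSMUSG00000029999.14, chr6:86195223-86275719) and gave the smallest p-value of the 10 members. CD mice were at 35.3, 35.8, 30.6, 28.2 and 35.6 CPM. The FFD mice spanned 44.2 to 57.1 CPM with a median of 54.1 CPM, all above the CD mice. Its spread within a diet was small, with means of 33.1 ± 3.48 CPM (SD, n = 5) and 52.4 ± 5.29 CPM (SD, n = 6). The log2 fold change was 0.66 (standard error 0.088, edgeR adjusted p = 0.00086), with a range from 0.50 to 0.72 over the 20 alternatives, all past the threshold. Its exons share 118 bases, 1.82% of their length, with the predicted gene Gm43917 on the other strand, and no source used here states whether reads were counted by strand.

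Betacellulin, which binds EGFR and ERBB4, is encoded by Btc (ENSMUSG00000082361.6, chr5:91357261-91402994). It was at 7.01, 6.26, 5.81, 5.58 and 7.63 CPM in CD mice. The FFD range was 8.09 to 13.3 CPM with a median of 9.31 CPM. No FFD mouse reached down to the CD range, and FFD mouse 4, at 13.3 CPM, was well above the rest, the next at 9.77 CPM. Btc had a log2 fold change of 0.59 (standard error 0.14, edgeR adjusted p = 0.0056), and it passed in all 20 alternatives.

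Epiregulin, the ligand of EGFR and ERBB4 encoded by Ereg (ENSMUSG00000029377.5, chr5:91074622-91093646), was rarer, with 64 to 190 counts per mouse. CD mice were at 5.61, 3.74, 2.84, 2.73 and 5.39 CPM. FFD mice ranged from 4.16 to 8.86 CPM with a median of 7.22 CPM, and FFD mice 1 and 3 fell within the CD range. The log2 fold change was 0.74 (standard error 0.24, edgeR adjusted p = 0.030). Among the settings that lost the call were those without CD mouse 2, 3 or 4, without FFD mouse 2, 4 or 6 and without TMM, with adjusted p-values up to 0.076. Of its exon bases 141, or 3.42%, are shared with the antisense gene Gm19610.

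Epigen, an EGFR ligand best known from skin, is encoded by Epgn (ENSMUSG00000035020.11, chr5:91027464-91035215) and was the rarest member, with 4 to 102 counts per mouse. CD mice were at 0.438, 0.144, 0.443, 0.558 and 1.22 CPM. FFD mice ranged from 0.641 to 4.09 CPM with a median of 2.17 CPM, and FFD mice 3 and 6 lay below CD mouse 5. The log2 fold change of 1.97 was the largest of the family and also the least precise (standard error 0.52, edgeR adjusted p = 0.011). It stayed between 1.68 and 2.48 in the 20 alternatives and passed in each.

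ERRFI1, also called MIG6, binds the kinase domain of active receptors of this family and blocks it. Its transcript Errfi1 (ENSMUSG00000028967.10, chr4:150853919-150868892) was at 90.0, 69.2, 58.5, 52.0 and 74.8 CPM in CD mice. The FFD mice spanned 76.4 to 154 CPM with a median of 101 CPM. FFD mice 1 and 3 lay below CD mouse 1 and the other 4 above it. Errfi1 had a log2 fold change of 0.67 (standard error 0.19, edgeR adjusted p = 0.016), and it passed in all 20 alternatives.

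The mice at the ends of each group recurred across members, which are measured in the same libraries and are thus no independent series. In CD, mouse 1 was the highest for Areg, Ereg, Hbegf and Errfi1, and mouse 4 was the lowest for these 4 and for Tgfa and Btc. In FFD, mouse 4 was the highest for Areg, Ereg, Hbegf, Btc and Errfi1, and mouse 3 was the lowest for Areg, Ereg, Tgfa, Epgn and Errfi1. FFD mouse 4 was also the shallowest library. Without it the log2 fold change was 0.995 for Areg, 0.49 for Btc and 0.55 for Errfi1, and the median over the members was 0.52.

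Promoter sequence from RefSeq, 250 bases before and 50 after each start site (GRCm38.p6), was at hand as 8 windows for 7 members, among them 2 start sites of Errfi1. Motifs of 3 kinds of factor were searched on both strands: the AP-1 element TGANTCA, the cAMP response element TGACGTCA and the TEAD element GGAATG. The AP-1 letters were in none of the 8 windows, beside 7.81% of 32851 promoter windows in the genome. The cAMP response element, which reads the same on both strands, was in 2 of the 8 windows, those of Areg and of 1 start site of Errfi1, beside 1.79% of all windows. These are the stretches shown, 150 bases up to the start site, with the element in capitals, 61 bases before the start of Areg and 51 bases before that of Errfi1. They lie at chr5:91139449-91139598 and chr4:150854920-150855069, both on the plus strand.
Areg: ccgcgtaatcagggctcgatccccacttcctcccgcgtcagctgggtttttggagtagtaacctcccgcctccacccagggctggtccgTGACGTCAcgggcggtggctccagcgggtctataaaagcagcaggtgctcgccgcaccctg
Errfi1: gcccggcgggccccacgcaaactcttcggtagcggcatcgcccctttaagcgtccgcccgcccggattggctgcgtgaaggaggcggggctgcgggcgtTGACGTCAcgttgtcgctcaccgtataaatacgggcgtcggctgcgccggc
The TEAD letters were in the window of Erbb2, 88 bases before the start, and in that of the other start site of Errfi1, 65 bases before it, beside 14.7% of all windows. No motif overlapped another in these windows. A match of letters describes the sequence alone, and no binding was measured here.

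To compare the members with each other, CPM were divided by the length of the merged exons in kilobases, a length that may overstate that of the transcripts made in these cells. On this scale Areg was the most abundant, at 78.9 ± 21.6 CPM per kb in CD (SD, n = 5) and 174 ± 63.0 CPM per kb in FFD mice (SD, n = 6). Hbegf followed at 46.4 ± 12.9 and 66.1 ± 16.7 CPM per kb, then Erbb3 at 31.4 ± 2.26 and 40.3 ± 6.09 CPM per kb. In CD the order went on with Erbb2 (24.6 CPM per kb), Errfi1 (19.2), Tgfa (5.10), Egfr (3.03), Btc (1.43), Ereg (0.984) and Epgn (0.310). In FFD mice Errfi1 (30.6 CPM per kb) and Erbb2 (30.2) came next, followed by Tgfa (8.08), Egfr (4.23), Btc (2.16), Ereg (1.65) and Epgn (1.23). The ranges over the CD mice overlapped between Areg and Hbegf, Hbegf and Erbb3, Erbb2 and Errfi1, Btc and Ereg, and Ereg and Epgn, although within each of the 5 CD mice the higher member of every such pair was also the higher. Over the FFD mice the ranges of Areg and Hbegf did not overlap, whereas those of Hbegf, Erbb3, Errfi1 and Erbb2 overlapped from each to the next, as did those of Btc, Ereg and Epgn. Errfi1 lay above Erbb2 in 2 of the 6 FFD mice, and the other neighbours kept their order in 5 or 6 of them. Before division by length, Hbegf lay above Areg in every mouse. Mean CPM of Hbegf and Areg were 225 and 95.9 in CD, and 319 and 211 in FFD mice. Their order per kb thus rests on the exon lengths used, 4834 bases for Hbegf and 1215 bases for Areg.

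Areg and Hbegf together made up most of the ligand level, in proportions that did not overlap between the diets. Summed over the 6 ligands, levels ran from 95.5 to 187 CPM per kb in CD and from 166 to 366 CPM per kb in FFD mice. Areg made up 57.5 to 60.9% of this sum in the 5 CD mice and 63.1 to 72.4% in the 6 FFD mice. Hbegf contributed 32.9 to 36.5% with cellulose and 23.2 to 30.8% without it. The ratio of Areg to Hbegf, which does not depend on the scaling between libraries, was 1.64, 1.76, 1.57, 1.68 and 1.85 in CD mice 1 to 5 and 2.36, 2.59, 2.05, 2.75, 3.12 and 2.58 in FFD mice 1 to 6. Its lowest value in FFD thus lay above its highest value in CD mice. Tgfa held 2.40 to 4.55% over all mice, and Btc, Ereg and Epgn each held at most 1.29%. The sizes of the shares and of the ratio rest on the same exon lengths. No test was made of these shares, since the ligands were chosen with results known.

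**Figure D3:**
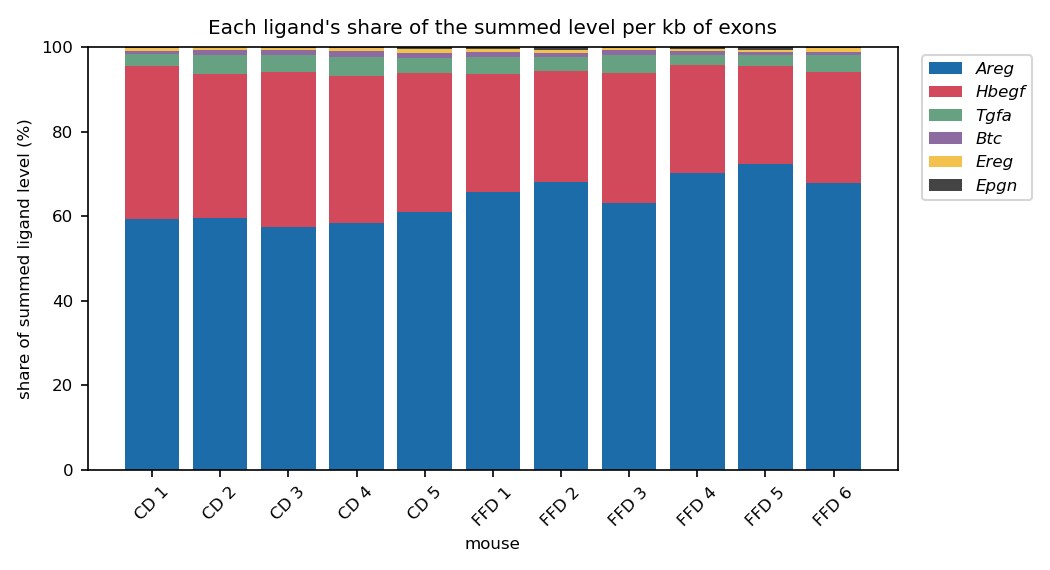
Share of each ligand (percent, vertical axis) in the summed level per kb of exons of the 6 ligands, with 1 stacked bar for each of 5 CD and 6 FFD mice. Areg fills 57.5 to 60.9% of the CD bars and 63.1 to 72.4% of the FFD bars, and Hbegf 32.9 to 36.5% and 23.2 to 30.8%.

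The shares of the receptors lay closer together. Erbb3 held 53.2 ± 1.06% of the summed level of the 3 receptors in CD (SD, n = 5) and 53.9 ± 0.914% in FFD mice (SD, n = 6). Erbb2 held 41.6 ± 1.12% and 40.4 ± 1.501%, and Egfr held 5.16 ± 0.466% and 5.71 ± 0.926%. All 3 shares overlapped between the diets. The sum of the receptors ran from 53.1 to 64.7 CPM per kb in CD and from 64.3 to 94.4 CPM per kb in FFD mice.

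Of the ligand genes 4, Epgn, Ereg, Areg and Btc, lie next to each other on chromosome 5, within 376 kb of GRCm38. The annotation places 7 genes in this span, of which 5 were tested. The fifth tested gene, the long noncoding RNA Gm19619 between Areg and Btc, had 104 counts over all mice and rose in FFD mice (log2 fold change 1.73, edgeR adjusted p = 0.0045), and was named after its value was seen. The antisense gene Gm19610 had 48 counts and was not tested. Tgfa and Hbegf, on other chromosomes, had log2 fold changes of 0.66 and 0.51, beside 0.59 to 1.97 for the 4 ligands in the span.

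Further genes of the pathway were followed in 6 lists, likewise chosen with earlier results of these data known. The lists held 105 genes, 103 of which were tested. In FFD mice 25 of them (24.3%) were higher by edgeR, beside 18.2% of all genes, and 10 (9.71%) were lower, beside 18.6% of all genes. The other 68 did not pass. These counts moved with the scaling, to 13 higher and 21 lower without TMM, beside 1636 higher and 4863 lower of all 15044 genes.

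None of 5 tested transcripts for the remaining receptor and ligands of the family passed by edgeR, 0 at an unadjusted p under 0.05 and 0 with DESeq2 or limma-voom. Their median log2 fold change was -0.36. The receptor Erbb4 was at 1.46 ± 0.771 CPM in CD (SD, n = 5) and 1.12 ± 0.374 CPM in FFD mice (SD, n = 6), with a log2 fold change of -0.36 (adjusted p = 0.45). Egf itself was at 4.28 and 3.93 CPM, without a direction that held when CD mouse 2 or FFD mouse 5 was left out (log2 fold changes of -0.12 in all mice, 0.10 and 0.027). Neuregulins are ligands of ERBB3, ERBB4 or both. Nrg1 had a log2 fold change of -0.58 (edgeR adjusted p = 0.16). Those of Nrg3 and Nrg4 were -0.59 (adjusted p = 0.18) and -0.29 (adjusted p = 0.20).

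Of 11 tested genes for the release and transport of ligands, 3 rose and 3 fell by edgeR, beside 18.2% and 18.6% of all genes. The 11 had a median log2 fold change of 0.096. Without TMM 1 was higher and 4 were lower, beside 1636 and 4863 of all 15044 genes. Adam10, the protease known to release betacellulin, rose from 158 ± 10.03 CPM (SD, n = 5) to 214 ± 26.4 CPM (SD, n = 6), a log2 fold change of 0.43 (edgeR adjusted p = 0.0031). Tspan15, a tetraspanin that guides ADAM10 to its substrates, rose by 0.28 (adjusted p = 0.0087), whereas Tspan5, another partner of ADAM10, fell by 0.98 (adjusted p = 0.0072). Adam9 rose by 0.31 (adjusted p = 0.0067), and Cnih1, a homolog of the transport receptor for TGF-alpha-like ligands in flies, fell by 0.16 (adjusted p = 0.032). Without TMM neither Adam9 (adjusted p = 0.074) nor Tspan15 (adjusted p = 0.11) passed, and Cnih1 did not pass in 9 of the 20 alternatives, 6 of which left out a mouse (CD mouse 2, 3 or 4, FFD mouse 3, 4 or 5), with adjusted p-values up to 0.16. Adam17, the main protease for amphiregulin and TGF-alpha, was at 42.0 ± 1.97 and 44.9 ± 2.77 CPM with a log2 fold change of 0.096 that did not pass (adjusted p = 0.22), and turned to -0.058 without TMM.

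In the cascade from the adaptors over RAS to ERK, 7 of 22 tested genes rose and none fell by edgeR, beside 18.2% and 18.6% of all genes, with a median log2 fold change of 0.091. Ksr1, a scaffold that holds RAF, MEK and ERK together, rose most, from 28.3 ± 2.12 CPM (SD, n = 5) to 49.0 ± 8.60 CPM (SD, n = 6), a log2 fold change of 0.79 (adjusted p = 0.0011). Smaller rises were found for the RAS-binding scaffold Shoc2 (0.30, adjusted p = 0.0025) and the adaptor Grb2 (0.28, adjusted p = 0.0045), the last of which did not pass without TMM (adjusted p = 0.054). In the PI3K to AKT branch 3 of 16 tested genes rose and none fell by edgeR, beside 18.2% and 18.6% of all genes. The 16 had a median log2 fold change of 0.084. In both lists 0 genes were lower at an unadjusted p under 0.05 or with DESeq2 or limma-voom. Without TMM, however, 3 were higher and 3 lower in the RAS to ERK list, and 1 higher and 3 lower in the PI3K to AKT list. Over all 15044 genes, 1636 were then higher and 4863 lower. Those that rose in the PI3K to AKT list were the adaptor Gab2 (0.40, adjusted p = 0.014), the kinase Src (0.38, adjusted p = 0.0094) and Pdpk1, the kinase that activates AKT (0.21, adjusted p = 0.014). Pik3cb, a catalytic subunit of PI3K, was next, with a log2 fold change of 0.19 that did not pass (adjusted p = 0.068). Without TMM, Gab2 (adjusted p = 0.055) and Pdpk1 (adjusted p = 0.43) did not pass, nor did Pdpk1 with no filter on low counts (adjusted p = 0.060).

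Genes for receptor turnover and feedback inhibition moved both ways. By edgeR 6 of 25 tested genes were higher and 4 lower, beside 18.2% and 18.6% of all genes. Without TMM 5 were higher and 6 lower. The median log2 fold change with TMM was 0.12. Sh3kbp1, an adaptor that works with CBL ligases in taking up the receptor, rose from 12.4 ± 3.93 CPM (SD, n = 5) to 30.5 ± 7.91 CPM (SD, n = 6), a log2 fold change of 1.30 (adjusted p = 0.0015). The phosphatase Ptprj, which acts on EGFR, rose by 0.78 (adjusted p = 0.0023) and the ligase Cblc by 0.35 (adjusted p = 0.0058). Lrig1, a membrane protein that binds and removes ERBB receptors and also marks stem cells, fell from 136 ± 18.03 CPM to 81.6 ± 18.6 CPM, a log2 fold change of -0.73 (adjusted p = 0.0026). The ERK pathway inhibitors of the Sprouty family went apart, with Spry1 at a log2 fold change of -0.58 (adjusted p = 0.0066) and Spry4 at 1.01 (adjusted p = 0.013). Dusp6, the phosphatase that inactivates ERK, rose from 68.5 ± 18.9 CPM to 129 ± 41.1 CPM (log2 fold change 0.91, adjusted p = 0.0090). Spry4 and Dusp6 were singled out after their values were seen.

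Of 24 tested transcripts known to respond to ERK, 6 rose and 3 fell by edgeR, beside 18.2% and 18.6% of all genes, with a median log2 fold change of 0.11. Without TMM 3 were higher and 5 lower, beside 1636 and 4863 of all 15044 genes. The AP-1 subunit Fosl2 rose by 0.50 on the log2 scale (adjusted p = 0.0069), and Ier3, Phlda1, Plaur, Klf6 and Klf10 were the other 5 that rose. Of these, Ier3, Phlda1 and Klf10 did not pass without TMM (adjusted p-values of 0.061, 0.071 and 0.19). Phlda1 also did not pass without CD mouse 1, 2, 3 or 4 or FFD mouse 2, 4 or 5, and Klf10 without CD mouse 3, 4 or 5 or FFD mouse 2, 4 or 5, with adjusted p-values up to 0.081. Those that fell were the ETS factors Etv4, from 10.1 ± 3.36 CPM (SD, n = 5) to 2.63 ± 1.86 CPM (SD, n = 6) with a log2 fold change of -1.90 (adjusted p = 0.0037), and Etv5, with a log2 fold change of -1.05 (adjusted p = 0.0029), and Myc, with a log2 fold change of -0.82 (adjusted p = 0.0017). The early genes Fos and Egr1 did not pass, with log2 fold changes of -0.10 (adjusted p = 0.53) and 0.25 (adjusted p = 0.32), although Egr1 did without CD mouse 1 (0.46, adjusted p = 0.047). Myc is also a known Wnt target.

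**Figure D4:**
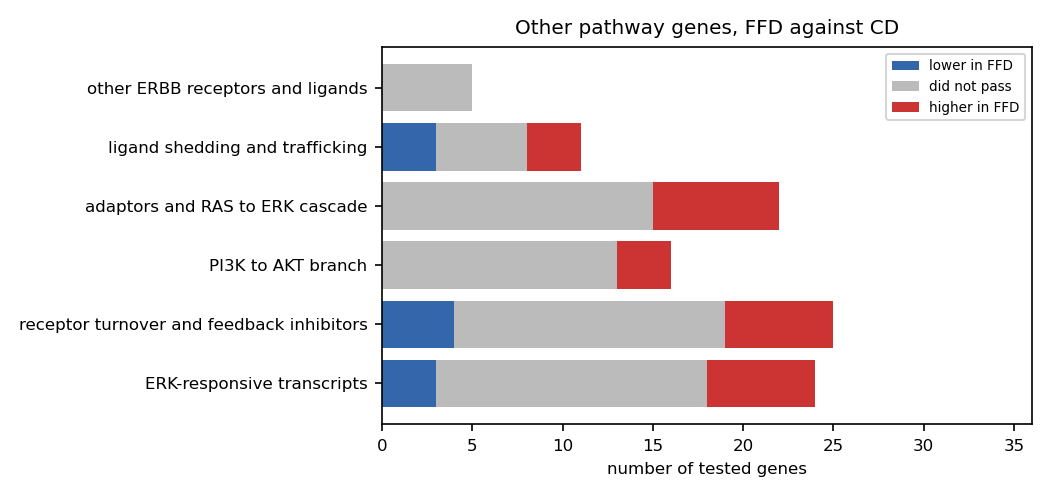
Number of tested genes (horizontal axis) in each of 6 lists of other pathway genes that were lower in FFD, did not pass or were higher in FFD by edgeR. Calls in the RAS to ERK list (7 of 22) and the PI3K to AKT list (3 of 16) are to the higher side with TMM, but number 3 higher and 3 lower, and 1 higher and 3 lower, without it. Of all 15044 genes, 18.2% were called higher and 18.6% lower with TMM, and 1636 were higher and 4863 lower without it.

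Markers of epithelial layers moved in both directions. Over all genes, edgeR called 18.2% higher and 18.6% lower. Of 9 general epithelial markers 6 rose and none fell by edgeR (1 fell with DESeq2 and 1 at an unadjusted p under 0.05), with summed levels of 11355 to 13478 CPM in CD and 12958 to 16173 CPM in FFD mice. Of 8 markers of surface colonocytes, the mature absorptive cells at the top of the crypt, 5 rose by edgeR. Aqp8, Slc20a1 and Guca2a did not pass. The summed level of the list went from 3324 to 4856 CPM in CD to 5587 to 9933 CPM in FFD mice. Most of it was Muc13, at 2301 and 4580 CPM on average. Stem cell markers went the other way, 6 of 7 tested being lower, with a sum of 100 to 163 CPM in CD and 51.2 to 98.0 CPM in FFD mice. Of 8 markers of dividing cells 4 were lower, with a sum of 805 to 1121 CPM in CD and 340 to 814 CPM in FFD mice. The part of these shifts in the levels of the members was not tested.

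**Figure D5:**
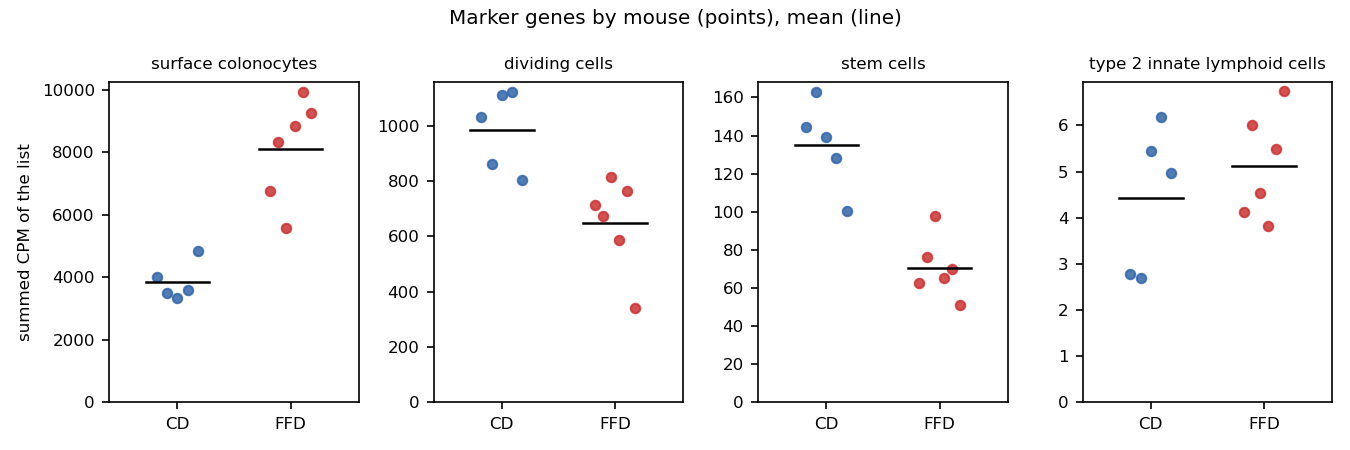
Summed CPM of 4 marker lists (vertical axes from 0) in each CD and FFD mouse as points, with the mean as a line. The sum of surface colonocyte markers is higher and that of stem cell markers lower in every FFD mouse than in every CD mouse. The sums for type 2 innate lymphoid cells, at 2.70 to 6.17 CPM in CD and 3.83 to 6.75 CPM in FFD mice, overlap.

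Leukocytes can also make ligands of this family, amphiregulin above all. Of 8 markers of type 2 innate lymphoid cells, which RAG KO mice keep, 3 were tested and none of them passed by edgeR or limma-voom. At an unadjusted p under 0.05, and with DESeq2, 1 was higher, Gata3, at 1.37 and 2.56 CPM. Gata3 also passed by edgeR without CD mouse 3 or 5 or FFD mouse 1 or 3, with adjusted p-values down to 0.018. The defining genes Il5, Il13 and Klrg1 had 3, 2 and 8 counts over all mice. Of 9 macrophage and monocyte markers C1qb and Cd14 rose by edgeR, beside 18.2% of all genes. The sum was 84.8 to 125 CPM in CD and 124 to 154 CPM in FFD mice. Most of it was Cd14, at 87.2 and 114 CPM on average. Neutrophil markers summed to 24.0 to 65.4 CPM in CD and 67.0 to 225 CPM in FFD mice, nearly all of it Ly6g, at 33.5 and 153 CPM on average, while the neutrophil genes Cxcr2, Mmp8 and Elane had 73, 19 and 7 counts over all mice. S100a8 and Ly6g were the 2 of 4 tested that rose. S100a8 did not pass without CD mouse 1, 2, 3 or 4 or FFD mouse 2 or 5, with adjusted p-values up to 0.080, and Cd14 did not without TMM (adjusted p = 0.076). Of the markers of mast cells and basophils (4 tested), fibroblasts and muscle (2 tested) and endothelium (3 tested), none passed by edgeR or limma-voom, 1 of the mast cell list was lower with DESeq2, and 2 in all were lower at an unadjusted p under 0.05. Their sums were 28.2 to 51.4, 5.98 to 8.52 and 4.93 to 7.59 CPM in CD and 19.1 to 36.9, 6.95 to 8.92 and 3.65 to 5.45 CPM in FFD mice. Kit made up most of the mast cell sum, at 32.4 and 22.8 CPM on average. Pdgfrb made up most of the fibroblast and muscle sum, at 5.06 and 6.32 CPM. No marker was at 0 in all mice. Whether these cells contributed to the levels of the members was not tested.

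Likeness to Tgfa and Egfr, the ligand and the receptor with the smallest p-values, was measured as Pearson's r of log2 CPM over the 11 mice after the mean of each diet was subtracted. The transcripts most like Tgfa were Mgat5 (r = 0.97), which encodes a glycosyltransferase that branches N-glycans, Fgd3 (r = 0.96) and Tpm1 (r = 0.95), which encodes a tropomyosin. The most like Egfr were the complement gene C1qb (r = 0.96), Prkx (r = 0.95) and Ssfa2 (r = 0.94). All 6 rose in FFD mice by edgeR, with log2 fold changes from 0.33 to 0.84, beside 18.2% of all genes that were called higher. These r are the highest of 15044 over few mice that share library effects, and C1qb had only 316 counts over all mice. The call of C1qb was lost in 9 of the 20 alternatives, 5 of which left out a mouse (CD mouse 1 or 3, FFD mouse 2, 4 or 5), with adjusted p-values up to 0.11.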

How the data were processed

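Epithelial cells were freed from the colon with DTT and EDTA and cleared on a Percoll gradient. Poly(A) RNA (integrity number above 8) was sequenced from 1 end over 59 bp. The authors trimmed and mapped these to GRCm38 with the CLC Workbench 10.0.1 and deposited raw counts per gene, with FastQC, R 3.5.1 and DESeq2 1.22.2 also listed in the submitters' processing notes. For the annotation, the use of strand and reads with several matches, the choices made were not given in the sources used here.

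From the deposited counts, genes were filtered with filterByExpr (minimum count 10, minimum total 15), scaled by TMM and tested for diet alone with the quasi-likelihood test of edgeR 4.0.16 in R 4.3.3, with Benjamini-Hochberg adjustment over 15044 genes. DESeq2 1.42.0, limma-voom (limma 3.58.1), RLE size factors, no TMM, 2 other filters, a robust fit, a replicate block, thinned libraries and each mouse left out in turn were the 20 alternatives. Total counts ranged from 10374154 to 28588266, and any 2 mice on the same diet differed beyond counting noise (chi-square over its degrees of freedom 11.1 or more). That they were housed or processed separately is not stated, so p-values cover the spread between these mice. Members and gene lists were chosen with earlier results of these data known. Named genes were the members, up to 4 genes with the smallest p and up to 2 opposite calls of each list, 3 genes most like Tgfa and Egfr, and markers, and further genes were named after their values were seen. A gene that this rule selects is not reported here, though it remains in the counts. Of 105 pathway genes 103 were tested. Exon lengths and coding sequences came from GENCODE M21 (GRCm38), promoters from RefSeq (GRCm38.p6).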

Additional observations from a re-analysis of the deposited data

Results flagged for a closer look

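A single mouse stood far from the others of its diet by Dixon's test in 6 of 116 groups searched (58 named genes in both diets), where chance gives about 1 in 20. FFD mouse 6 was at 198.7 CPM for the receptor Erbb2, with the nearest FFD mouse at 160.0 CPM, and at 311.4 CPM for Erbb3, with the nearest at 243.0 CPM. FFD mouse 4 was at 13.3 CPM for the ligand Btc, with the nearest at 9.77 CPM. CD mouse 5 was at 101.4 CPM for the ERK phosphatase Dusp6, with the nearest CD mouse at 66.7 CPM. CD mouse 2 was at 6.59 CPM for Egf, with the nearest CD mouse at 3.94 CPM, and CD mouse 5 at 45.5 CPM for the protease Adam17, with the nearest at 41.8 CPM.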

How the results depend on the processing

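The number of members higher in FFD mice was 9 and ran from 6 (no TMM) to 10 over 20 alternatives, and it was 7 to 10 with 1 mouse left out. No member was lower in any of them. Egfr, Areg, Tgfa, Btc, Epgn and Errfi1 passed in all 20, Erbb3 in 19, Erbb2 in 15, Ereg in 12 and Hbegf in 9. Egf, which ran from -0.26 to 0.10 with 1 mouse left out, changed sign without CD mouse 2 (0.10) and without FFD mouse 5 (0.027), and Adam17 without TMM (-0.058), none of them past the threshold. The pathway lists had 25 genes higher and 10 lower. These counts became 13 and 21 without TMM, beside 1636 and 4863 of all 15044 genes. In the other alternatives the counts of the pathway lists stayed at 21 to 30 and 7 to 10. Over single named genes, 177 results of members kept their side of the threshold, 9 newly passed and 14 no longer did, beside 887, 12 and 51 for the other named genes, 3 more of which were the changes of sign. Replicate numbers did not pair the mice, since correlations of same-numbered mice ran from -0.28 to 0.23, and with a replicate block, in which FFD mouse 6 has no partner, 8 members, 21 pathway genes upward and 7 downward, and 1953 higher and 1829 lower genes in all passed. Ereg was the member that lost its call under the block (adjusted p = 0.067). Depth limits the rare transcripts, among the members Epgn with 4 to 102 counts per mouse, and elsewhere Gm19619, C1qb, Nrg4 and Erbb4 with 104, 316, 334 and 343 counts over all mice. The per-length levels rest on annotated exons, and the shares of ligands and receptors do not depend on the scaling between mice.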
